A study of Homo sapiens with 38 samples.

Results

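The HOXC genes are the homeobox genes of the HOXC cluster on human chromosome 12. They were taken by name from the deposited TPM table: HOXC4, HOXC5, HOXC6, HOXC8, HOXC9, HOXC10, HOXC11, HOXC12 and HOXC13, 9 of its 58219 genes. The table describes H9 cells, an established wild-type human embryonic stem cell line, during neural induction. It covers 38 poly(A) RNA libraries in 19 groups of 2. The group D0 ESC is undifferentiated cells at day 0. At day 4 (D4) and day 8 (D8) there were 9 conditions. Cells received IWP2, an inhibitor of WNT secretion, at 2.0 µM, or CT, the activator of WNT signalling whose name the labels do not expand, at 0.0 (untreated), 0.4, 0.8, 1.0, 2.0, 3.0 or 4.0 µM. The last condition, CT4.0RA, combined CT at 4.0 µM with retinoic acid (RA) at 1.0 µM. According to the design text, IWP2 is meant to give rostral forebrain, increasing CT diencephalon through to rhombencephalon, and CT4.0RA the spinal cord. The differentiated cells are labelled neural progenitors of a single line. The 2 libraries of a group are called biological replicates, and nothing states that they came from separate differentiations. The p-values therefore measure only how these libraries spread, taken over all 19 groups together.

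HOX genes encode transcription factors that give cells their position along the head-to-tail axis. In mammals they lie in clusters named A to D, and genes of the same number in different clusters are paralogs derived from a common ancestor. Within a cluster the low-numbered genes are generally switched on earlier and further rostrally than the high-numbered ones. In the neural tube HOXC4 and HOXC5 mark hindbrain and cervical levels, HOXC6 marks the level of the forelimb, HOXC8 and HOXC9 the thoracic cord, and HOXC10 to HOXC13 lumbar and more caudal levels. WNT, FGF and CDX factors promote HOX expression in the progenitors of the growing trunk, and retinoic acid acts on HOX genes through receptors bound to DNA.

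The 9 genes lie on the plus strand between 53938765 and 54056030 of chromosome 12 (GRCh38, GENCODE release 29), an interval of 117.266 kb. HOXC13 comes first and HOXC4 ends last. Their annotations overlap. HOXC6 shares 484 exonic bases with HOXC4 and 73 with HOXC9. HOXC5 shares 611 with RP11-834C11.12, a protein-coding gene model that runs from HOXC10 into HOXC5. Of the 1805 exonic bases of HOXC5, 1081 are also part of RP11-834C11.14, a processed transcript model. That model shares 305 bases with HOXC4 and 305 with HOXC6 as well. The antisense genes HOXC-AS2 and HOXC-AS3 share 163 exonic bases with HOXC9 and 63 with HOXC10, respectively. Whether the counting used strand is not given in the sources used here, so reads in these stretches cannot be assigned with certainty.

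A promoter window was found for 2 of the 9 genes, HOXC4 and HOXC5, in the RefSeq table (GRCh38.p14), and both share the same window. In GENCODE release 29 HOXC4 starts at 54016931, next to this window, but HOXC5 starts at 54032853, well downstream of it. The window is therefore not beside HOXC5 as annotated there. It is shown because it was the only window available for the 9 genes. HOXC4 and HOXC5 kept the most expression under retinoic acid of the genes described below. The 250 bases before the start site, at chr12:54016638-54016887 on the plus strand, are printed 5′ to 3′ with the only motif found in capitals.
HOXC4 and HOXC5 promoter: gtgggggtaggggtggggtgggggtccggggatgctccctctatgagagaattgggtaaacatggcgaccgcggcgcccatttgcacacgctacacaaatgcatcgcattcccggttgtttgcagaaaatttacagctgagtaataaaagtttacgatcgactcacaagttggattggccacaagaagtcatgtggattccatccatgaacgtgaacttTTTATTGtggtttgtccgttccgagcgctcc
The capitals mark TTTATTG, one of 2 letter strings searched for CDX factors (the other was TTTATGG), at position -31 from the start site. The whole window was searched, and the print gives its 250 bases before the start site. Of 35116 whole promoter windows, 6.35% held one of the 2 strings on either strand. No match was found in this window for CTTTGAT (TCF/LEF, the factors of WNT signalling, in 2.62% of windows) or for TGATTNAT (HOX with its cofactor PBX, 2.82%), on either strand. The same held for the direct repeats bound by retinoic acid receptors, AGGTCA followed after 5 bases by AGGTCA (0.0057% of windows) and the shorter GGTCA followed after 5 bases by GGTCA (0.0854%), of which the second includes the first. Matches describe letters in the sequence and not binding.

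A pair of microRNA genes lies among the HOXC genes. Mature sequences from RefSeq (GRCh38.p14) are given because the table lists the precursor genes. The seed, bases 2 to 8, is in capitals.
hsa-miR-196a-5p: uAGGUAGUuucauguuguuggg
hsa-miR-615-3p: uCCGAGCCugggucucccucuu
The first comes from MIR196A2 (chr12:53991762-53991783, plus strand), between the ends of HOXC10 and HOXC9, and is known to target HOX transcripts, that of HOXC8 among them. The other comes from MIR615 (chr12:54034010-54034031, plus strand), inside HOXC5. Their seeds differ. Poly(A) libraries do not measure mature microRNAs, so the values given for these genes below are those of longer transcripts.

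Expression was almost entirely limited to the 12 libraries of CT3.0, CT4.0 and CT4.0RA. Levels are in TPM, transcripts scaled to a fixed total, which is corrected for gene length, so levels of different genes can be set side by side. In the 26 other libraries the highest value was 3.80 TPM for HOXC4 and 0.339 for HOXC6. It was 0.267 for HOXC10, 0.120 for HOXC8, 0.115 for HOXC5 and 0.0513 for HOXC9. At a level of 1 TPM in both libraries of a group, 5 of the 9 genes were expressed at D4 CT3.0, D4 CT4.0 and D8 CT3.0, namely HOXC4, HOXC5, HOXC6, HOXC8 and HOXC9. HOXC10 joined them at D8 CT4.0, which made 6. With retinoic acid only HOXC4 reached that level at day 4, and HOXC4 and HOXC5 at day 8. At D8 CT2.0 HOXC4 alone was expressed, and in the 12 other groups none of the 9 genes was.

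**Figure D1:**
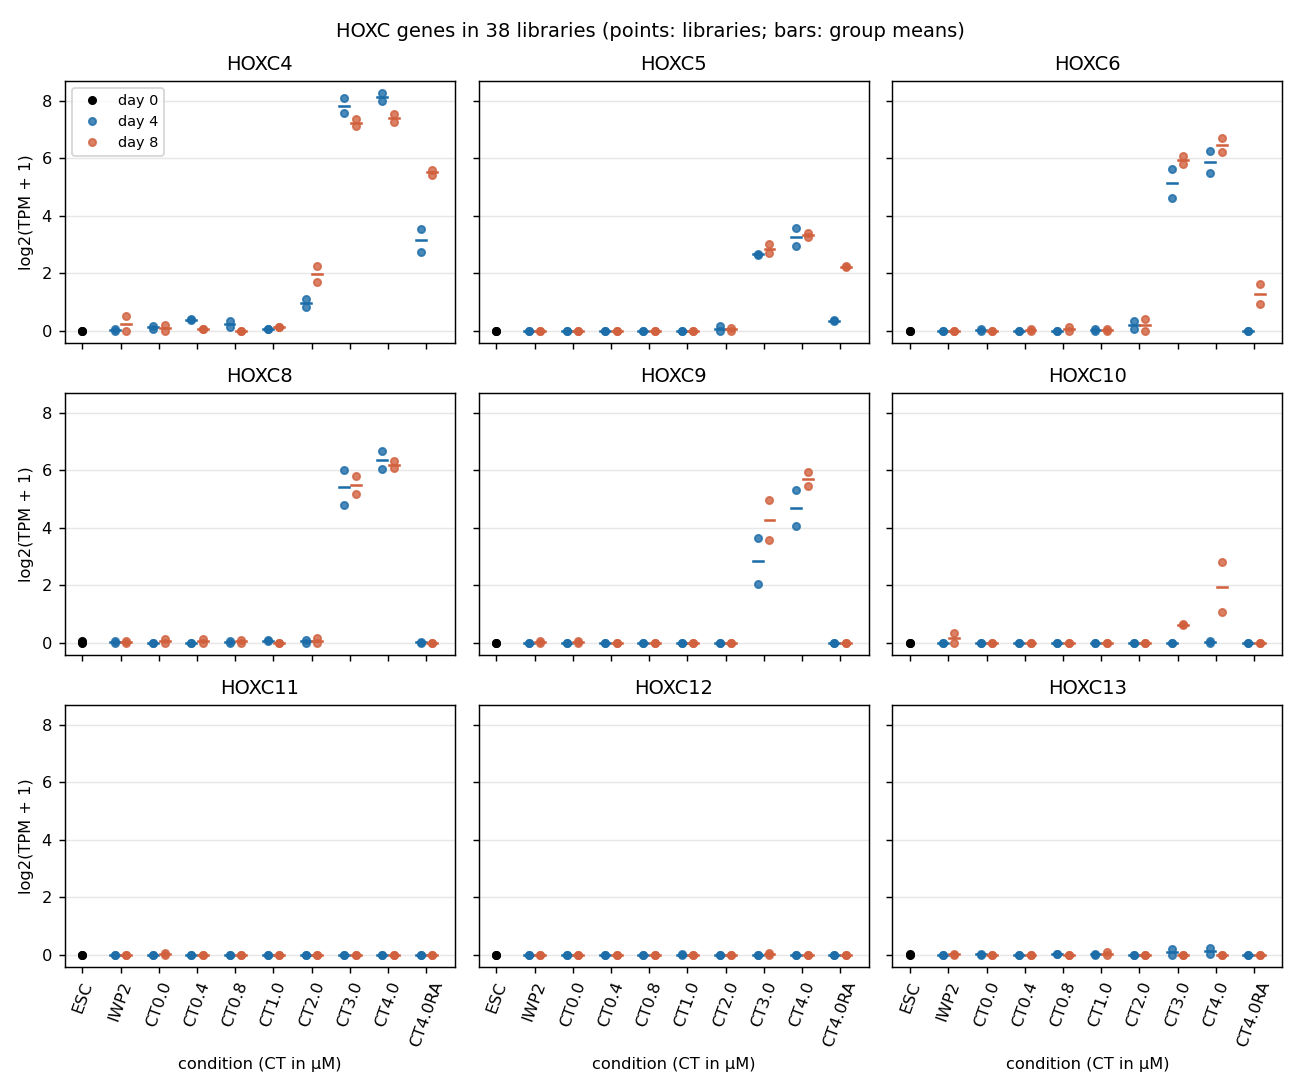
Level of each HOXC gene (y axis, log2(TPM + 1)) in each of the 38 libraries, by condition (x axis); points are libraries (black day 0, blue day 4, orange day 8) and short bars are group means. HOXC4 reaches 307 TPM at D4 CT4.0, HOXC10 exceeds 1 TPM only in the D8 CT4.0 libraries, and HOXC11, HOXC12 and HOXC13 stay near 0 throughout.

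Depth cannot be recovered from TPM, so the reads behind each value are unknown. Each library sums to 1000000 TPM. Of 38 libraries, 33 correlated best with the other library of their group, and r within groups ran from 0.9577 to 0.9724 on log2(TPM + 1). The other 5 were the D4 CT3.0 libraries (closest to D4 CT4.0), replicate 1 of D8 CT4.0 (closest to D8 CT3.0) and the D8 CT0.0 libraries (closest to D8 IWP2). Tests were made with limma on log2(TPM + 1) over 28221 genes at or above 1 TPM in at least 2 libraries, and a gene was called at a Benjamini-Hochberg adjusted p under 0.05 with a log2 difference of at least 1. HOXC4, HOXC5, HOXC6, HOXC8, HOXC9 and HOXC10 passed the filter on low values, and HOXC11, HOXC12 and HOXC13 did not. HOXC10 passed it only through the 2 libraries of D8 CT4.0, the group where it is highest. Its p-values for comparisons with that group are therefore taken from the fit with no filter on low values, and it is named apart from the counts. For most HOXC genes the comparison group is at or near 0, and the size of such a log2 difference then depends on the pseudocount. Each gene had 1 estimate of spread, pooled over all 19 groups, those at 0 in both libraries included. HOXC9 was at 0 in 28 of 38 libraries and HOXC10 in 32. For HOXC genes the SE and p-values can therefore understate the spread of the groups that expressed them. Because TPM has a fixed total, the median difference of all genes was not always 0. Over the 33 comparisons it ranged from -0.325 (D8 CT4.0RA against untreated) to 0.167 (D8 CT1.0 against D4 CT1.0). TMM scaling rescales each library by a trimmed mean of its log ratios. In 14 of the 19 comparisons with a HOXC call, it moved the share of higher calls among all calls by over 10 points. Examples were 19.9% to 45.3% at D8 CT4.0 against untreated and 30.3% to 49.8% for RA at day 4.

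Across the 9 conditions of day 4, HOXC4, HOXC5, HOXC6, HOXC8 and HOXC9 passed the limma F test (adjusted p between 1.3e-18 and 1.4e-09), 5 of the 9 genes against 46.4% of all genes tested. HOXC10 did not (adjusted p = 1). HOXC11, HOXC12 and HOXC13 are among the 9 but were not tested on either day. The 5 of 9 is therefore not on the same basis as the share of genes tested. At day 8 the same 5 of 9 passed against 57.9% of genes tested. HOXC10 also passed, on the strength of the D8 CT4.0 libraries that brought it through the filter.

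HOXC4, the most rostral gene of the cluster, had the highest level of the 9 in every group at 1 TPM or more. At day 4 its 2 libraries stood at 0.117 and 0.0581 TPM in untreated cells and at 0.764 and 1.16 at CT2.0. They reached 190.0 and 269 TPM at CT3.0 and 254 and 307 at CT4.0. The step from CT2.0 to CT3.0 was 6.86 ± 0.23 (log2 difference ± SE, adjusted p = 2.5e-15, limma), and the libraries of the 2 groups lie far apart. From CT3.0 to CT4.0 they overlap, and the difference was 0.30 ± 0.23 (adjusted p = 0.907). At day 8 HOXC4 already stood at 3.80 and 2.25 TPM at CT2.0, above the 0 and 0.159 of untreated cells (1.88 ± 0.23, adjusted p = 1.7e-06, limma). With a pseudocount of 0.1 that difference was 4.23. It then rose to 138 and 163 at CT3.0 and 152 and 184 at CT4.0. Ordered by group mean, D4 CT4.0 (280.5 ± 37.8 TPM, SD, n = 2) came before D4 CT3.0 (229.6 ± 56.1), D8 CT4.0 (168 ± 22.6) and D8 CT3.0 (151 ± 17.2). D8 CT4.0RA (44.8 ± 4.18), D4 CT4.0RA (8.19 ± 3.47) and D8 CT2.0 (3.02 ± 1.10) followed. Neighbours overlap only between CT4.0 and CT3.0 of the same day.

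HOXC5, its neighbour at the same end of the cluster, was low throughout. Most of its exonic bases are shared with RP11-834C11.14, which read 3.68 and 5.31 TPM at D4 CT4.0 and 8.14 and 9.11 at D8 CT4.0. How reads were divided between these gene models is not known, so the level of HOXC5 is uncertain. In untreated cells HOXC5 was listed at 0 in all 4 libraries. At day 4 the libraries read 5.28 and 5.41 TPM at CT3.0 and 6.76 and 10.9 at CT4.0. At day 8 they read 5.47 and 7.07 at CT3.0 and 8.57 and 9.67 at CT4.0. The 2 CT4.0 groups overlap, as do D4 CT4.0 and D8 CT3.0. At its highest group mean (9.12 ± 0.784 TPM, D8 CT4.0) HOXC5 was the lowest of the 5 genes expressed in all 4 groups of CT3.0 and CT4.0. The step from CT3.0 to CT4.0 did not pass on either day (0.60 ± 0.16 at day 4, adjusted p = 0.186, and 0.48 ± 0.16 at day 8, adjusted p = 0.253).

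HOXC6, a gene of the brachial level, stood at 23.5 and 48.9 TPM at D4 CT3.0 and at 44.1 and 75.3 at D4 CT4.0. By day 8 the libraries were at 54.3 and 66.0 at CT3.0 and 73.3 and 103 at CT4.0. D8 CT4.0 had the highest mean (88.1 ± 20.9 TPM) and did not overlap with the next group, D8 CT3.0, although the higher D4 CT4.0 library lies within its range. The remaining CT3.0 and CT4.0 groups overlap with their neighbours in the order. Neither day gave a passing step from CT3.0 to CT4.0 (0.75 ± 0.28, adjusted p = 0.491, and 0.53 ± 0.28, adjusted p = 0.592). In untreated cells HOXC6 was at 0 and 0.0542 TPM at day 4 and listed at 0 at day 8.

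HOXC8, a thoracic gene, read 27.0 and 63.6 TPM at D4 CT3.0 and 64.3 and 99.5 at D4 CT4.0. The day 8 libraries were at 34.7 and 55.1 at CT3.0 and 66.3 and 78.6 at CT4.0. Its order follows dose and not day: the 2 CT4.0 groups overlap, as do the 2 CT3.0 groups, and D8 CT4.0 does not overlap with D4 CT3.0. The dose step itself did not pass (0.93 ± 0.26 at day 4, adjusted p = 0.221, and 0.71 ± 0.26 at day 8, adjusted p = 0.342). HOXC8 came next after HOXC4 at both day 4 doses, and at day 8 HOXC6 stood between them.

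HOXC9, also thoracic, was the most caudal HOXC gene above 1 TPM at day 4. It read 3.11 and 11.5 TPM at D4 CT3.0 and 15.8 and 38.7 at D4 CT4.0. At day 8 the libraries were at 10.9 and 30.0 at CT3.0 and 43.1 and 60.5 at CT4.0. The libraries of CT4.0 lie above those of CT3.0 on both days, with differences of 1.85 ± 0.40 at day 4 (adjusted p = 0.061) and 1.44 ± 0.40 at day 8 (adjusted p = 0.117), neither of which passed in limma. At day 4 the difference was past the threshold without replicate 1 of D4 CT4.0 (2.47, adjusted p = 0.0109) or replicate 2 of D4 CT3.0 (2.65, adjusted p = 0.0014). Without that D4 CT3.0 library HOXC6 (1.26, adjusted p = 0.0414) and HOXC8 (1.53, adjusted p = 0.00228) passed as well. At day 8 HOXC9 passed without replicate 2 of D8 CT3.0 (2.13, adjusted p = 0.0173).

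HOXC10, a lumbar gene, appeared late and low. At day 4 it was listed at 0 at CT3.0 and read 0.0357 and 0 TPM at CT4.0. By day 8 it had 0.564 and 0.526 at CT3.0 and 1.12 and 6.07 at CT4.0. The 2 libraries of D8 CT4.0 differ by a ratio of 5.43, and both lie above those of D8 CT3.0. HOXC10 rose from CT3.0 to CT4.0 at day 8 (1.33 ± 0.29, adjusted p = 0.0276 with no filter, limma). In that fit 55 of 43661 genes were called higher in this comparison, and with the filter 0.195% of genes were. None of the 8 other HOXC genes was called there, and no HOXC gene was called in the same comparison at day 4, where 0.0638% of all genes were. Only those 2 libraries of HOXC10 reached 1 TPM, so without either of them the gene no longer passed the filter on low values. The rise from CT3.0 also lost its call with a pseudocount of 0.1 (2.09, adjusted p = 0.119) and without either D8 CT3.0 library (1.34, adjusted p = 0.168, and 1.31, adjusted p = 0.119).

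HOXC11, HOXC12 and HOXC13, the genes of the caudal end, remained silent. HOXC11 was at 0 in 37 of 38 libraries, and its highest value was 0.0362 TPM in 1 library of D8 CT0.0. HOXC12 was at 0 in 36 libraries and reached at most 0.0381 TPM (D8 CT3.0). HOXC13 was at 0 in 28 libraries, and its highest value was 0.183 TPM at D4 CT4.0, where the other library read 0.0304. HOXC13 was also at 0.150 in 1 library of D4 CT3.0. HOTAIR, the antisense RNA between HOXC12 and HOXC11, was highest at D8 CT4.0, at 0.119 and 0.0593 TPM. HOXC13-AS was listed at 0 in the libraries of CT2.0 and above. Since the depth is unknown, silence here means a value this low in TPM and not an absence.

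Against untreated cells of the same day, 5 of the 9 genes were higher at D4 CT3.0 and at D4 CT4.0, where 2.87% and 3.31% of all genes were called higher. At day 8, the same 5 of 9 were higher at CT3.0 and at CT4.0, against 3.11% and 3.15% of all genes, and HOXC10 was higher at CT4.0 as well (adjusted p = 9.9e-06 with no filter, limma). HOXC4, the only one of these above 0 in both untreated libraries at day 4, rose by 7.71 ± 0.23 at CT3.0 (adjusted p = 1.7e-16) and by 8.01 ± 0.23 at CT4.0 (adjusted p = 5.3e-17, limma). Untreated cells were at or close to 0 for all of these genes, HOXC4 included, so that a fold has no fixed size, and with a pseudocount of 0.1 the HOXC4 differences were 10.3 and 10.6. At D4 CT4.0 their adjusted p-values were 6.5e-13 (HOXC5), 2.8e-13 (HOXC6), 3.2e-14 (HOXC8) and 5.0e-09 (HOXC9) in limma. At CT2.0 none of the 9 was called at day 4 (2.10% of all genes called higher), with HOXC4 at 0.84 ± 0.23, and HOXC4 alone at day 8 (2.06%). The dose step from CT2.0 to CT3.0 called 5 of 9 higher on both days (2.04% of all genes at day 4, 4.08% at day 8). From CT1.0 to CT2.0 no HOXC gene was called at day 4 (1.08% of all genes) and HOXC4 alone at day 8 (1.84 ± 0.23, adjusted p = 1.4e-05, limma; 3.92 with a pseudocount of 0.1), where 0.687% of all genes were called. IWP2 and CT at 0.4, 0.8 and 1.0 µM gave no call in any of the 9 genes on either day. Of all genes, 0.159%, 0.659%, 1.18% and 1.44% were called higher in these 4 conditions at day 4, and 0.195%, 3.55%, 1.97% and 1.79% at day 8.

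In all 21 combinations of a gene and a group of CT3.0 or CT4.0 with a library at 1 TPM or more, the library numbered 2 was the higher one, by a ratio between 1.02 and 5.43 (median 1.42). In the other groups it was the higher one in 4 of 6 such combinations, the exceptions being HOXC4 at D8 CT2.0 (3.80 and 2.25 TPM) and HOXC5 at D8 CT4.0RA (3.74 and 3.66). CDX2, a driver of trunk HOX expression, was also higher in the library numbered 2 in all 4 of these groups (for example 164 and 193 TPM at D4 CT4.0). The 21 combinations are genes read in the same 4 pairs of libraries, so they are not separate observations. How many of all genes were higher in the library numbered 2 was not counted. In bulk RNA, more cells expressing a gene and more RNA per cell cannot be told apart.

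The gap between CT3.0 and CT4.0 was smallest for HOXC4. At day 4 the CT3.0 mean was 81.9% of the CT4.0 mean for HOXC4, 60.6% for HOXC5, 60.7% for HOXC6, 55.3% for HOXC8 and 26.7% for HOXC9. At day 8 the same shares were 89.4%, 68.8%, 68.3%, 62.0% and 39.5%, and 15.2% for HOXC10. The shares fall with the gene number on both days, except that HOXC5 and HOXC6 are level at day 4. They are descriptions of group means, and no test was made of the order.

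From day 4 to day 8 the level of HOXC4 became lower relative to the other HOXC genes, and HOXC10 appeared. At CT4.0 the day 8 mean was 60.0% of the day 4 mean for HOXC4, 103% for HOXC5, 148% for HOXC6, 88.4% for HOXC8 and 190% for HOXC9. The difference for HOXC4 was under the threshold of 1 (-0.73 ± 0.23, adjusted p = 0.0221). None of the 8 genes other than HOXC10 was called higher, against 1.95% of all genes. HOXC10 itself was at 1.93 ± 0.29 (adjusted p = 3.1e-05 with no filter, limma), which restates the 1.12 and 6.07 TPM at D8 CT4.0 against 0.0357 and 0 at D4 CT4.0. At CT3.0 HOXC9 rose by 1.43 ± 0.40 (adjusted p = 0.0104, limma), again 1 of 9, against 2.08% of genes. That call ended without replicate 1 of D4 CT3.0 (0.62, adjusted p = 0.323) or replicate 2 of D8 CT3.0 (0.74, adjusted p = 0.275). HOXC9 at CT4.0 was at 1.01 ± 0.40 (adjusted p = 0.0744). It passed with TMM scaling (1.22, adjusted p = 0.0267) and without replicate 2 of D4 CT4.0 (1.63, adjusted p = 0.0133). At CT2.0 HOXC4 rose by 1.02 ± 0.23 (adjusted p = 0.0047, limma), 1 of 9 against 2.32% of genes, and was under the threshold with TMM scaling (0.99), with a pseudocount of 0.1 (1.54, adjusted p = 0.0834) and without replicate 1 of D4 CT2.0 (0.87, adjusted p = 0.0716) or of D8 CT2.0 (0.74, adjusted p = 0.129).

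CT4.0 cells given retinoic acid had far less HOXC RNA than those without it, and HOXC4 and HOXC5 kept the largest shares. At day 4 the mean with retinoic acid was 2.92% and 3.14% of the CT4.0 mean for these, and at most 0.0211% for HOXC6, HOXC8 and HOXC9. At day 8 it was 26.6% and 40.6%, then 1.73% for HOXC6, and HOXC8, HOXC9 and HOXC10 were listed at 0. At day 4, 5 of the 9 genes were lower with retinoic acid, against 4.07% of all genes called lower. At day 8 the same 5 of 9 were lower, against 4.33% of genes, and so was HOXC10. None of the 9 was higher on either day (1.77% and 4.54% of all genes). Ribosomal protein genes took a larger share of TPM with retinoic acid, 29.1% in both libraries against 22.7% and 21.5% at day 4, and 36.4% and 37.2% against 28.4% in both at day 8. The part of this shift in the result was not tested. With TMM scaling the counts of lower HOXC genes were the same, 5 at day 4 and 6 at day 8 with HOXC10.

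HOXC4 stood at 254 and 307 TPM at D4 CT4.0 and at 5.74 and 10.6 with retinoic acid, 2.92% of the mean (-4.98 ± 0.23, adjusted p = 4.4e-13, limma). At day 8 the libraries were at 152 and 184 without and 41.8 and 47.7 with retinoic acid, 26.6% of the mean (-1.88 ± 0.23, adjusted p = 1.0e-06, limma). HOXC5 went from 6.76 and 10.9 to 0.257 and 0.296 TPM at day 4, 3.14% of the mean (-2.91 ± 0.16, adjusted p = 9.3e-12, and -4.53 with a pseudocount of 0.1). At day 8 it went from 8.57 and 9.67 to 3.74 and 3.66, 40.6% of the mean (-1.10 ± 0.16, adjusted p = 1.5e-05). The libraries with and without retinoic acid do not overlap for HOXC4 or HOXC5 on either day.

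HOXC6 was listed at 0 with retinoic acid at day 4 (adjusted p = 6.8e-13 against CT4.0, limma). At day 8 it read 0.911 and 2.13 TPM, 1.73% of the CT4.0 mean (-5.17 ± 0.28, adjusted p = 3.4e-12). HOXC8 read 0 and 0.0345 TPM at day 4 with retinoic acid, 0.0211% of the CT4.0 mean (-6.32 ± 0.26, adjusted p = 8.7e-14), and was listed at 0 at day 8 (adjusted p = 9.8e-14). HOXC9 was listed at 0 in all 4 libraries with retinoic acid (adjusted p = 7.8e-09 at day 4 and 2.1e-10 at day 8). HOXC10 was listed at 0 as well (adjusted p = 1.7e-05 at day 8 with no filter). Every gene from HOXC8 to HOXC13 was thus at or under 0.0345 TPM in the 4 libraries of CT4.0RA.

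**Figure D2:**
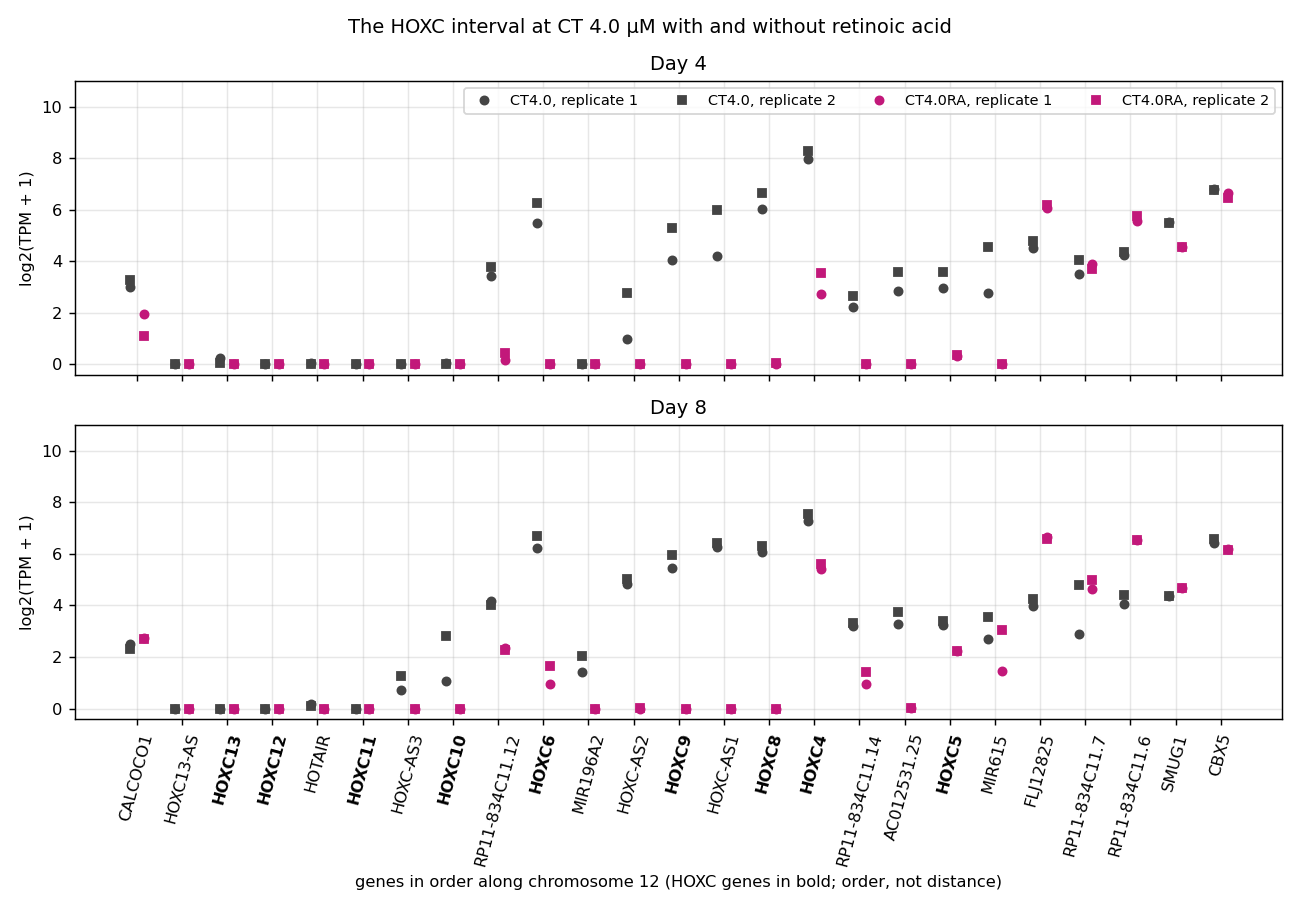
Level (y axis, log2(TPM + 1)) of the HOXC genes (bold) and the other genes of the interval, in order along chromosome 12 (x axis, order and not distance), at CT4.0 (grey) and CT4.0RA (magenta); circles are replicate 1 and squares replicate 2. With retinoic acid HOXC9 and HOXC8 are at or near 0 on both days, HOXC4 keeps 44.8 TPM at day 8, and the noncoding genes FLJ12825 and RP11-834C11.6 beyond HOXC4 are higher than at CT4.0 alone.

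Compared with untreated cells, the cells with retinoic acid had 1 of 9 HOXC genes higher at day 4 (3.13% of all genes), HOXC4, at 3.03 ± 0.23 (adjusted p = 3.3e-10, limma; 5.42 with a pseudocount of 0.1). At day 8 there were 3 of 9 (3.00% of all genes): HOXC4 (5.41 ± 0.23, adjusted p = 2.3e-14, and 8.12 with a pseudocount of 0.1), HOXC5 (adjusted p = 1.9e-10) and HOXC6 (adjusted p = 6.5e-04), the last 2 against untreated cells listed at 0. The same 3 genes rose from day 4 to day 8 in CT4.0RA cells, against 3.26% of all genes. HOXC4 rose by 2.37 ± 0.23 (adjusted p = 5.9e-08) and HOXC5 by 1.88 ± 0.16 (adjusted p = 1.3e-08, limma; 3.34 with a pseudocount of 0.1). HOXC6 had been listed at 0 at day 4 (adjusted p = 0.00131), and both of its calls ended when replicate 2 of D8 CT4.0RA was left out (0.93, adjusted p = 0.0315 and 0.0529).

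The effect of retinoic acid at day 8 less that at day 4 was tested directly. HOXC4 (3.10 ± 0.32, adjusted p = 7.9e-07) and HOXC5 (1.81 ± 0.23, adjusted p = 9.5e-06) were reduced less at day 8, 2 of 9 genes against 5.56% of all genes in that direction. With a pseudocount of 0.1 the HOXC5 difference was 3.25. In the other direction none of the 8 genes other than HOXC10 was called, against 1.56%. HOXC10 was at -1.93 ± 0.41 (adjusted p = 0.00215 with no filter, limma), but at day 4 it had at most 0.0357 TPM to lose, so the value restates its level at D8 CT4.0. HOXC6 (0.71 ± 0.39, adjusted p = 0.274), HOXC8 (0.12 ± 0.37, adjusted p = 0.924) and HOXC9 (-1.01 ± 0.56, adjusted p = 0.276) did not pass. HOXC6 did so with a pseudocount of 0.1 (3.32, adjusted p = 0.00988), and the sign for HOXC8 changed with a pseudocount of 0.1 and with TMM scaling. For CT4.0 against untreated cells, the difference between days was called higher for none of those 8 genes, against 1.67% of genes, and HOXC10 was at 1.93 ± 0.41 (adjusted p = 0.00206 with no filter, limma), which rests on the same 2 libraries.

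Noncoding genes of the interval were measured in the same libraries. HOXC-AS1, antisense within the span of HOXC9, stood at 17.3 and 63.4 TPM at D4 CT4.0 and 75.4 and 85.1 at D8 CT4.0, and was listed at 0 in the 4 libraries with retinoic acid (adjusted p = 1.7e-08 and 3.5e-10, limma). HOXC-AS2, next to HOXC9, was at 0.997 and 5.78 TPM at day 4 and 27.7 and 31.3 at day 8, and at most at 0.0263 with retinoic acid (adjusted p = 7.4e-04 and 1.1e-09). Its day 4 call ended without replicate 2 of D4 CT4.0 (-0.998, adjusted p = 0.0525). HOXC-AS3, beside HOXC10, reached 0.660 and 1.38 TPM at D8 CT4.0 and was listed at 0 in both libraries of D4 CT4.0. MIR196A2 was above 0 at D8 CT4.0 (1.699 and 3.14 TPM) and listed at 0 in the other groups of CT2.0 and above. MIR615, inside HOXC5, was at 5.89 and 22.4 TPM at D4 CT4.0 and listed at 0 with retinoic acid, and at day 8 it read 5.53 and 10.7 without and 1.72 and 7.25 with retinoic acid (-0.89 ± 0.47, adjusted p = 0.192). The libraries of the last 2 groups overlap, and without replicate 2 of D8 CT4.0RA the difference passed (-1.69, adjusted p = 0.0195). Of the 10 noncoding and neighbouring genes on the list, 4 were lower with retinoic acid at day 4 and 3 at day 8, and none was higher. The list includes protein-coding genes outside the cluster. CALCOCO1 read 7.13 and 8.60 TPM at D4 CT4.0 and 2.89 and 1.14 with retinoic acid, and its day 8 mean was 130% of that at CT4.0. CBX5 was left at 83.8% and 79.2% of its CT4.0 mean at day 4 and day 8.

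Past the HOXC4 end, 2 noncoding genes were higher with retinoic acid. The long noncoding gene FLJ12825 lies at 54058254 to 54122234, just past the end of HOXC4. It read 21.9 and 26.5 TPM at D4 CT4.0 and 66.1 and 71.5 with retinoic acid (1.48 ± 0.20, adjusted p = 9.0e-06, limma). At day 8 it read 14.9 and 18.2 without and 101 and 94.5 with retinoic acid (2.50 ± 0.20, adjusted p = 2.4e-09). RP11-834C11.6, another noncoding gene within the same stretch, was at 18.0 and 19.6 TPM at D4 CT4.0 and 46.0 and 53.6 with retinoic acid (1.35 ± 0.20, adjusted p = 2.6e-05), and at 15.6 and 20.4 against 92.2 and 92.7 at day 8 (2.31 ± 0.20, adjusted p = 8.0e-09, limma). Both were under 1 TPM in untreated cells and at CT2.0 on both days. They belong to a list of 6 further gene models of the interval that was drawn up after the table had been seen, of which 2 were higher and 3 lower with retinoic acid on each day. SMUG1, a DNA repair gene at the far end of FLJ12825, was at -0.95 ± 0.14 at day 4 and at 0.30 ± 0.14 at day 8, both within the threshold of 1. Its exons share 179 bases with FLJ12825 on the other strand.

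Paralogs from the other clusters, which encode closely related proteins, gave different readings under retinoic acid. In group 9, HOXA9 fell with HOXC9. At day 8 it read 99.9 and 119 TPM at CT4.0 and 0 and 0.0356 with retinoic acid (-6.76 ± 0.43, adjusted p = 5.0e-11, limma). HOXB9 at day 8 stood at 185 and 166 TPM without and 191 and 244 with retinoic acid (0.30 ± 0.51, adjusted p = 0.787). At day 4 HOXB9 was lower with retinoic acid, at 79.8 and 161 TPM against 340 and 354 (-1.61 ± 0.51, adjusted p = 0.0267, limma), 34.6% of the mean. That call ended with a pseudocount of 0.1 (adjusted p = 0.17), with TMM scaling (0.11), and without replicate 1 (0.087) or replicate 2 (0.124) of D4 CT4.0 or replicate 1 of D4 CT4.0RA (0.275). HOXD9 reached at most 0.0324 TPM in the groups of CT2.0 and above. In group 8, HOXB8 read 82.7 and 81.9 TPM without and 92.1 and 84.5 with retinoic acid at day 8 (0.10 ± 0.34, adjusted p = 0.946), where HOXC8 was listed at 0. At day 4 HOXB8 fell from 105 and 139 to 35.1 and 34.5 TPM (-1.76 ± 0.34, adjusted p = 4.6e-04, limma), 28.6% of the mean, and did not pass with a pseudocount of 0.1 (adjusted p = 0.0801). In group 6, HOXA6 was left at 2.34% of its CT4.0 mean at day 4 and 6.51% at day 8, and HOXB6 at 43.8% and 75.4%, where HOXC6 was listed at 0 and then left at 1.73%.

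At the rostral end, HOXA5 lay close to HOXC5. It read 50.2 and 68.9 TPM without and 22.2 and 28.7 with retinoic acid at day 8 (-1.19 ± 0.23, adjusted p = 3.2e-04, limma), a call that ended without replicate 2 of D8 CT4.0 (-0.96, adjusted p = 0.0138). It was left at 2.69% of its CT4.0 mean at day 4 and 42.7% at day 8, next to 3.14% and 40.6% for HOXC5, and its own difference between the days passed (3.30 ± 0.32, adjusted p = 3.2e-07, limma). HOXB5 was left at 45.9% and 40.1%. In group 4, HOXC4 was left at 2.92% and 26.6%, HOXA4 at 16.2% and 14.1%, HOXB4 at 46.4% and 52.3%. HOXD4 rose instead, from 48.8 and 58.3 to 226 and 211 TPM at day 8 (2.01 ± 0.23, adjusted p = 4.8e-07, limma). In group 10, HOXA10 was found at day 4 (2.18 and 1.31 TPM at CT4.0) and hardly at day 8 (0.0630 and 0.137), the reverse of HOXC10. Of the 20 paralogs of HOXC genes in the other clusters, 10 were lower and 1 higher with retinoic acid at day 4, and 5 lower and 1 higher at day 8. With TMM scaling 6 were lower at day 4 and 5 at day 8.

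**Figure D3:**
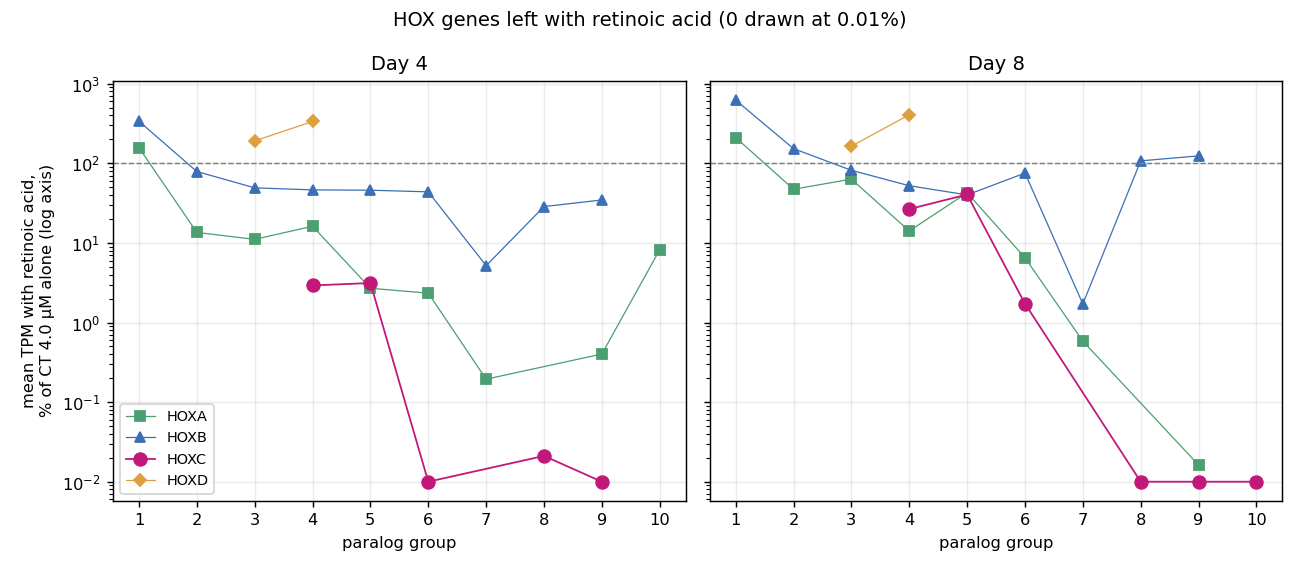
Mean TPM with retinoic acid as a percent of the mean at CT4.0 alone (y axis, log scale; values of 0 are drawn at 0.01%) by HOX paralog group (x axis), at day 4 and day 8, for genes with a CT4.0 mean of at least 1 TPM; symbols and colours are the 4 clusters, and the dashed line is 100%. HOXC genes of groups 6 to 9 lie under 2% on both days, as does HOXC10 at day 8, HOXC4 and HOXC5 move from 2.92% and 3.14% at day 4 to 26.6% and 40.6% at day 8, and HOXB genes other than HOXB7 lie at 28.6% or above.

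As a share of the summed TPM of all HOX genes, the HOXC cluster held between 11.64% and 17.6% in the 8 libraries of CT3.0 and CT4.0. With retinoic acid it held 0.697% and 1.12% at day 4 and 2.66% and 3.21% at day 8. The summed level of the 9 genes was 385 and 532 TPM at D4 CT4.0 and 5.99 and 10.97 with retinoic acid. The day 8 sums were 345 and 442 against 46.5 and 53.5 TPM. HOXB held most of the HOX transcripts in all 12 of these libraries, between 59.2% and 88.2%.

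**Figure D4:**
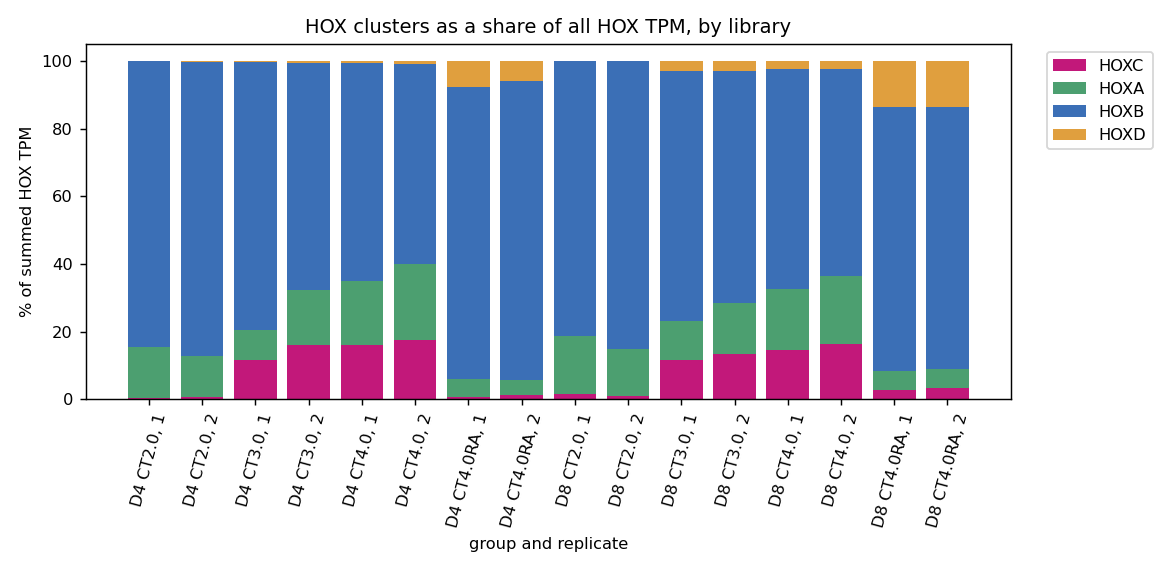
Share of the summed TPM of all HOX genes (y axis, percent) held by each cluster, 1 stacked bar for each library of CT2.0, CT3.0, CT4.0 and CT4.0RA at day 4 and day 8. The HOXC part (magenta) reaches 17.6% at D4 CT4.0 and stays at or under 3.21% in every library of CT2.0 and CT4.0RA.

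Genes with the most similar pattern were ranked by Pearson's r over the 19 group means of log2(TPM + 1), as a description; the points share the same libraries. HOXC4 was most like HOXA3 (0.9875), HOXA5 (0.9798) and HOXB5 (0.9767). HOXC5 was most like RP11-834C11.12 (0.996), with which it shares exonic bases, HOXA5 (0.9954) and HOXA6 (0.9613). The first 3 for HOXC6 were HOXA6 (0.9938), HOXA7 (0.988) and HOXA9 (0.9823). HOXC8 went with HOXA7 (0.9949), HOXA6 (0.9895) and TBXT (0.984), the brachyury gene of axial progenitors and mesoderm. HOXC9 went with HOXA9 (0.9962), HOXA6 (0.9753) and HOXA7 (0.9701). HOXC10, a low gene, was most like PRAME (0.9415), ABCB1 (0.907) and TICAM2 (0.8679). Among the HOXC genes themselves r with HOXC4 fell with gene number, from 0.9748 for HOXC5 to 0.49 for HOXC10, and the closest pair was HOXC6 and HOXC8 (0.9898).

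The 3 CDX genes, homeobox factors that act upstream of trunk HOX genes, separated under retinoic acid. CDX2 stood at 164 and 193 TPM at D4 CT4.0 and at 7.72 and 8.09 with retinoic acid (-4.33 ± 0.20, adjusted p = 6.8e-13, limma). At day 8 it stood at 122 and 139.5 against 0.502 and 0.952 TPM (-6.26 ± 0.20, adjusted p = 1.1e-15). CDX1 went the other way, from 10.5 and 22.0 to 249 and 257 TPM at day 4 (3.96 ± 0.28, adjusted p = 4.3e-10) and from 0.352 and 1.29 to 70.2 and 84.9 at day 8 (5.47 ± 0.28, adjusted p = 1.3e-12, limma). CDX4 was at 1.06 and 4.31 TPM at D4 CT4.0 and listed at 0 with retinoic acid (adjusted p = 1.1e-04, limma). At D8 CT4.0 the mean of CDX4 was only 1.07 TPM. Its difference with retinoic acid at day 8 was -0.77 without replicate 2 of D8 CT4.0, within the threshold of 1. At D4 CT3.0, where HOXC4 was at 190.0 and 269 TPM, CDX2 was at 149.6 and 174 and CDX1 at 1.33 and 3.32. Among the 3, then, CDX2 went down with the HOXC genes and CDX1 went up on both days, and CDX4 went down from a low level.

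Whether the cells with HOXC expression carried their labelled identity was checked against marker genes. In CT4.0 cells PAX6, a neural progenitor gene, read 1.78 and 1.20 TPM at day 4 and 1.29 and 1.78 at day 8, against 99.7 and 107 in untreated cells at day 4. SOX1 was at or under 0.294 TPM in these 4 libraries. Of 9 neural progenitor markers, 5 were lower at D4 CT4.0 than in untreated cells and all 9 at D8 CT4.0, and none was higher (3 and 6 of 9 lower with TMM scaling). Of all 28221 genes, 1407 and 3580 were called lower in these 2 comparisons (1066 and 1883 with TMM scaling). The sum of the neural progenitor markers was 477 and 467 TPM at D4 CT4.0 against 1179 and 1213 in untreated cells. SOX2, which axial progenitors share, still read 199.9 and 188 TPM at D4 CT4.0. Of 12 markers of axial progenitors and paraxial mesoderm, 5 were higher at day 4 and 4 at day 8, with TBXT at 31.3 and 41.3 TPM and NKX1-2 at 142 and 171 at D4 CT4.0. The sum of this list was 355 and 434 TPM at D4 CT4.0 against 2.78 and 3.97 in untreated cells. CDX2, described above, is on this list, and with NKX1-2 it made up most of the sum at D4 CT4.0. MSGN1 and TBX6, of paraxial mesoderm, reached at most 1.85 and 2.54 TPM in the CT4.0 libraries. The 12 markers of lateral and intermediate mesoderm summed to 1.20 TPM or less, in the 4 CT4.0 libraries, with TBX5 and GATA4 at 0. Of the 8 endoderm markers SOX17 was at 0 in these libraries, while CXCR4, a chemokine receptor gene that is not limited to endoderm, was at 38.8 and 37.7 TPM at D4 CT4.0 against 4.04 and 5.14 in untreated cells (2.82 ± 0.18, adjusted p = 6.7e-11, limma). It made up most of the sum of that list, 39.0 and 38.3 TPM against 4.39 and 5.47. In the groups where HOXC levels were highest, the defining markers of the labelled cell type, PAX6 and SOX1, were thus near 0.

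With retinoic acid PAX6 stood at 168 and 167 TPM at day 4 and at 326 and 327 at day 8, and HES5, a NOTCH target of neural progenitors, rose by 5.75 ± 0.33 and 6.62 ± 0.33 (adjusted p = 1.1e-11 and 7.9e-13, limma). SOX1 stayed low, at 3.68 and 2.86 TPM at day 8. Neural progenitor markers were higher in 4 of 9 cases at day 4 and 6 of 9 at day 8, and the axial list had 4 of 12 lower and 1 higher on both days, with TBXT at or under 0.272 TPM. The sum of the axial list was 22.0 and 21.2 TPM at day 4 and 19.6 and 14.7 at day 8. Lower HOXC levels thus went with higher neural and lower axial progenitor markers, CDX2 among the latter. The part of these markers in the result was not tested.

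**Figure D5:**
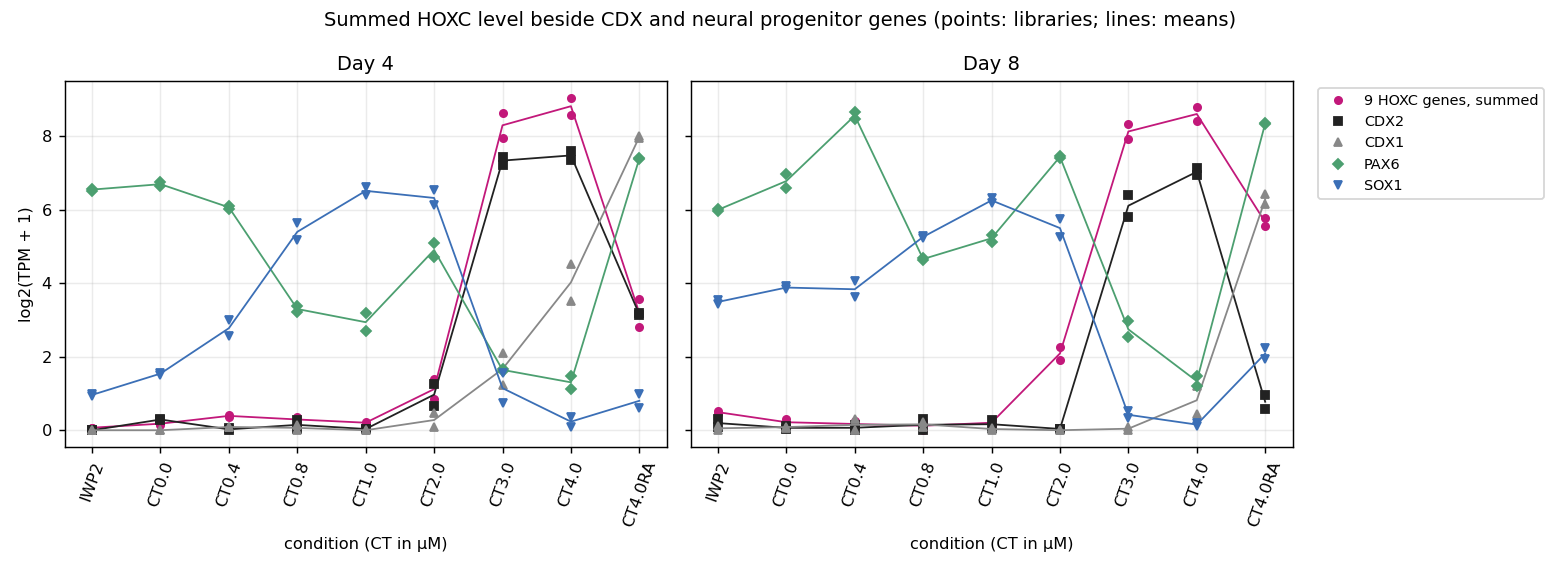
Summed level of the 9 HOXC genes beside CDX2, CDX1, PAX6 and SOX1 (y axis, log2(TPM + 1)) across the 9 conditions (x axis) at day 4 and day 8; points are libraries and lines join group means. The HOXC sum and CDX2 are high at CT3.0 and CT4.0, where PAX6 and SOX1 are low, and CDX1 is highest with retinoic acid.

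Other genes that act with or on HOX genes were counted from lists. Of all 28221 genes, 1407 were called lower at D4 CT4.0 than in untreated cells and 3580 at D8 CT4.0 (1066 and 1883 with TMM scaling). Of 9 HOX cofactors of the PBX, MEIS and PKNOX families, 5 were lower at CT4.0 than in untreated cells on both days, the largest being PBX3 (-4.16 ± 0.34 at day 4 and -4.97 ± 0.34 at day 8, adjusted p = 2.7e-09 and 8.0e-11, limma). With retinoic acid 4 were higher and 1 lower at day 4, and 6 higher and 1 lower at day 8, led by MEIS2 (4.01 ± 0.35 and 5.32 ± 0.35), while PBX2, the highest-expressed one that did not pass, was at -0.29 and -0.02 (0.01 and 0.06 with TMM scaling). Among 17 retinoid pathway genes, the day 4 calls were 6 higher and 3 lower, and the day 8 calls 8 higher and 2 lower. CYP26A1, the enzyme that degrades retinoic acid and a direct target of it, rose by 7.01 ± 0.33 and 7.50 ± 0.33, and the receptor gene RARB by 4.11 ± 0.21 and 4.45 ± 0.21 (adjusted p of 7.9e-13 or less for both genes at day 8, limma). Of 19 Polycomb and trithorax genes, which keep HOX clusters silent or active, retinoic acid raised 1 and lowered 4 at day 4, and raised 2 and lowered 3 at day 8. JARID2 fell by 2.08 and 1.68 on the log2 scale, and PHC2 did not pass (0.15 and -0.06, the latter 0.03 with TMM scaling). With TMM scaling 1 gene was higher and 1 lower at day 4. Of 9 signals and regulators of axis elongation, 3 were lower and none higher with retinoic acid at day 4, and 3 lower and 1 higher at day 8. FGF17 and FGF8, signals of the elongating trunk, fell by 7.45 and 3.32 at day 4.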

How the data were processed

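Poly(A) RNA of 38 libraries was sequenced as paired ends on 2 kinds of Illumina instrument, which the labels do not tie to a library. Salmon 0.8.2, CASAVA 1.7 and hg38 are named in the submitters' processing notes, with no settings. The authors deposited 1 table of TPM per gene (58219 genes), in which each library sums to 1000000, so depth is not known. Every column matched a sample title. Values were analysed as log2(TPM + 1) with limma 3.58.1 in R 4.3.3 (trend, 19 group means, 19 residual degrees of freedom, 33 contrasts, Benjamini-Hochberg adjustment over 28221 genes). Fits were tested on simulated data. Alternatives were a pseudocount of 0.1, other filters, TMM factors computed on the TPM table, a replicate block and leaving out each library. Over all genes tested, same-numbered libraries did not deviate together (r from -0.0427 to 0.0372 over 171 pairs of groups). The numbers, which the sample titles carry in every group with no pairing stated, were therefore not used as pairs. That r does not describe the HOXC genes alone. For these, the library numbered 2 was the higher one in all 21 combinations at CT3.0 and CT4.0 described above, which come from the same few pairs of libraries. The replicate block was the only fit that included the number.

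The 9 HOXC genes and the gene lists (paralogs, locus, CDX, cofactors, retinoid, Polycomb and trithorax, axis elongation, cell type markers) were chosen with earlier results of these data known. Named beyond the HOXC genes were the 3 protein-coding genes most like each, paralogs of the same number and all CDX genes. The genes of the locus list were named too, with some of the further gene models of the interval. From each other list came the 2 largest calls and the highest-expressed gene that did not pass, or defining markers.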

Additional observations from a re-analysis of the deposited data

Results flagged for a closer look

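The effect of retinoic acid differed between the days for 3 HOXC genes, by limma's test of the difference itself. For HOXC4 the effect at day 8 less that at day 4 was 3.10, as the libraries kept 41.8 and 47.7 TPM at day 8 and 5.74 and 10.6 at day 4. For HOXC5 it was 1.81, with 3.74 and 3.66 TPM at day 8 and 0.257 and 0.296 at day 4. HOXA5 differed between the days in the same direction (3.30). For HOXC10 it was -1.93.

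The effect of CT4.0 against untreated cells also differed between the days for HOXC10, by 1.93. Both HOXC10 values rest on the 1.12 and 6.07 TPM of the D8 CT4.0 libraries against groups at or near 0, so their size depends on the pseudocount. HOXC10 passed the filter on low values only through those 2 libraries and was not tested without either of them. For HOXC5 the size depends on the pseudocount too (3.25 with 0.1).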

How the results depend on the processing

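The counts of HOXC genes called against untreated cells at CT3.0 and CT4.0, at the step from CT2.0 to CT3.0 and for retinoic acid against CT4.0 were within 1.5 times their values under all alternatives run. With a pseudocount of 0.1 the count became 1 at D4 CT2.0 against untreated and against CT1.0, 2 at D4 CT4.0RA against untreated, 0 at D8 CT4.0 against CT3.0, and 0 and 2 from day 4 to day 8 at CT2.0 and CT3.0. With TMM scaling the counts from day 4 to day 8 became 0, 2 and 2 at CT2.0, CT3.0 and CT4.0. At D4 CT4.0 against CT3.0 the count was 1 when genes had to reach 1 TPM in both libraries of a group. The replicate block gave 1 there too, HOXC9 (adjusted p = 0.0428), and the other 24 counts with the block stayed within 1.5 times. A level of 0.5 TPM gave 1 gene at D4 CT2.0, and 5 TPM gave 0 at D8 CT2.0 and 1 at D8 CT4.0RA. The cause of these changes was not tested.

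Leaving out single libraries gave counts of 0 to 3 at D4 CT4.0 against CT3.0 and 0 to 1 at D8 CT4.0 against CT3.0 and at D4 CT2.0 against CT1.0. From day 4 to day 8 they ran from 0 to 1 at CT2.0, 0 to 2 at CT3.0 and 0 to 2 at CT4.0. For the differences between days they ran from 0 to 1 (CT4.0, higher) and 0 to 1 (retinoic acid, lower). Signs reversed only for differences that had not passed. HOXC5 from day 4 to day 8 at CT4.0 ran from -0.2334 to 0.3816 when single libraries were left out. HOXC8 there became 0.0635 with TMM scaling and ran from -0.4582 to 0.1645 without single libraries. The day difference of HOXC8 under retinoic acid became -0.0658 (pseudocount 0.1) and -0.0943 (TMM scaling), and ran from -0.189 to 0.4337 without single libraries. With TMM scaling PBX2 under retinoic acid became 0.0097 at day 4 and 0.0605 at day 8, and PHC2 became 0.0262 at day 8. Without single libraries PHC2 ran from -0.111 to 0.4059 at day 4 and from -0.1347 to 0.0189 at day 8. Where a group is left with 1 library, the fit assumes that it varies like the other groups. The unknown depth limits statements on HOXC10 to HOXC13, which lie near 0.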

Other observations

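Of the cell type lists not described above, the 13 hindbrain and spinal neural tube markers had 2 higher and 1 lower at D4 CT4.0 than in untreated cells, and 4 higher and 2 lower with retinoic acid at day 8. The 10 neural crest markers had 1 higher and 2 lower at D4 CT4.0, and 2 higher and 2 lower with retinoic acid at day 8. The 12 neuron markers had 3 higher and 2 lower at D8 CT4.0, and 6 higher and none lower with retinoic acid at day 8. With retinoic acid at day 4 the largest called changes of that list went both ways. STMN2 was at -4.93 ± 0.20 (adjusted p = 4.8e-14, limma) and NEUROG2 at 4.46 ± 0.34 (adjusted p = 1.3e-09, limma). Of 8 endoderm markers 1, CXCR4, was higher at D4 CT4.0, and of 7 pluripotency markers 1 was lower at D4 CT4.0 and 2 at D8 CT4.0. Among the 8 HOX genes of groups 1 to 3, which have no HOXC member, 2 were higher and 3 lower with retinoic acid at day 4, and 3 higher and none lower at day 8.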
